A study of Mus musculus with 2 samples.

Results

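Among single-cell transcriptomes of mouse embryonic stem cells (ESCs) grown in serum/LIF, 232 of the 11054 cells kept carried transcripts of primitive endoderm genes, a share of 2.10% (exact 95% binomial interval 1.84 to 2.38%). These primitive endoderm-like cells were chosen by their measured values. Each had at least 4 unique molecular identifiers (UMIs, 1 per captured RNA molecule) summed over Gata6, Gata4, Sox17, Pdgfra, Sox7, Foxq1 and Dab2, with at least 2 of these 7 genes detected. Each also had at most 2 UMIs of Col1a2 and Col3a1, collagen genes of the fibroblasts used as feeder cells. They were compared with 9489 marker-free cells of the same library, which had 0 UMIs of the 7 genes and met the same collagen limit. Another 1176 kept cells fell between these limits and 157 were over the collagen limit. All intervals given here cover counting error only, because each stage was measured in 1 library and no replicate was available for a test.

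The study made 2 droplet libraries, 1 of ESCs grown on feeder cells with serum/LIF and 1 of epiblast-like cells induced for 48 h (48h-EpiLCs) in N2B27 medium with activin A, bFGF and KSR. In both libraries a wild-type (WT) line and a Cnot8 knockout (KO) line were pooled in equal numbers. The WT line carried the ROSA mT/mG allele, a reporter from which tdTomato is transcribed, and the KO line came from embryos whose Cnot8 gene had been cut in exon 2 with CRISPR/Cas9. The labels gave the strain as ICR and named only wild type as the genotype, and no source used here tells whether each line was more than 1 clone. The ESC library held 13184 barcodes and 144584246 UMIs, and the 48h-EpiLC library held 12427 barcodes and 163771168 UMIs. The libraries shared 41 barcodes, and 0 of these belonged to a primitive endoderm-like cell.

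The primitive endoderm is the layer of the late blastocyst that faces the cavity and later lines the yolk sac as visceral and parietal endoderm. It separates from the epiblast under FGF signalling: epiblast cells make the ligand FGF4, and cells that respond to it keep the GATA factors and lose NANOG. Mouse ESCs in serum are heterogeneous and are known to include a minority of cells with transcripts of this lineage.

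Depth did not separate the classes at the median. The primitive endoderm-like cells had a median of 11816 UMIs per cell (range 2510 to 37247) and 3621.5 genes, and the marker-free cells had 11724 UMIs (range 1511 to 48490) and 3516 genes. Mitochondrial transcripts made up a median of 3.88% and 3.96% of UMIs. A score that marks likely doublets, droplets holding more than 1 cell, was over its threshold in 35 primitive endoderm-like cells (15.1%) and in 7.43% of marker-free cells. These 35 cells were deeper, with a median of 19343 UMIs against 11414 in the other 197. The named genes are compared again without cells over the threshold below.

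The 7 selection genes were unevenly detected, and their levels are given as a description because they chose the cells. Gata6, the zinc-finger factor at the top of the lineage, was detected in 97.4% of the cells (94.5 to 99.0%). Foxq1, a forkhead factor, was detected in 80.6% (74.9 to 85.5%), and Pdgfra, the receptor for PDGF-A, in 72.4% (66.2 to 78.1%). The factors that act later in the lineage were less widely seen, with Gata4 in 53.0%, Sox17 in 47.8% and Sox7 in 23.3%. Dab2, an adaptor for endocytosis, was detected in 38.8%. The median cell had 11 marker UMIs of 4 genes, the highest had 48 UMIs, 14 cells had all 7 genes and 40 had exactly 2. At least 4 of the 7 genes were found in 139 of the 232 cells. Cells with exactly 2 genes were more frequent than cells with the complete set.

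Whether the 7 genes were found in the same cells was examined by leaving each out of the selection in turn. Levels are given as CPM, the UMIs of a gene per 1000000 UMIs of the class. In cells chosen by the other 6 genes, Gata6 was at 396 CPM, against 4.11 CPM in cells with 0 UMIs of the other 6, a ratio of 96.5 (86.5 to 108). The ratio was 178 (148 to 214) for Foxq1, 165 (133 to 206) for Pdgfra and 122 (92.3 to 163) for Sox17. It was 78.8 (61.7 to 101) for Gata4, 34.5 (28.8 to 41.3) for Dab2 and 23.6 (17.3 to 32.1) for Sox7. Each of the 7 genes was thus at least 17.3-fold higher at the lower end of its interval in cells that the gene itself had not chosen. The 7 genes had been picked with earlier results of these data known. These ratios therefore describe the selection and are not independent support for it.

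**Figure D1:**
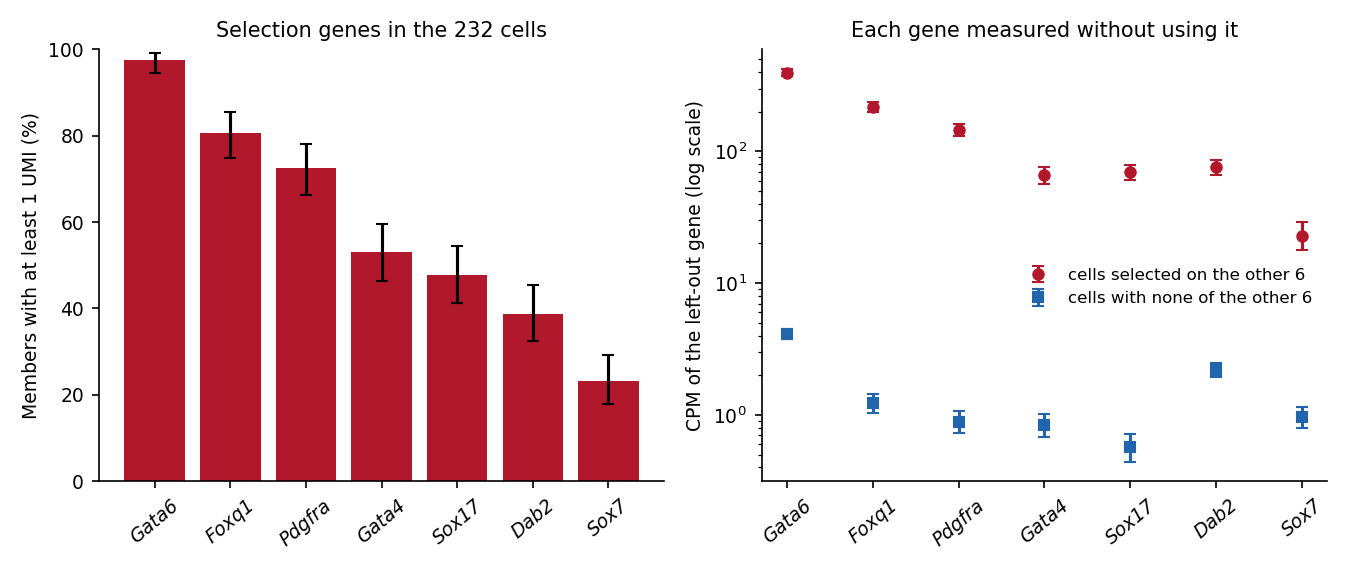
The left panel shows the share of the 232 primitive endoderm-like cells with at least 1 UMI of each selection gene, from 97.4% for Gata6 to 23.3% for Sox7, with exact 95% binomial intervals. The right panel shows the CPM of each gene (log scale, exact 95% Poisson intervals) in cells chosen by the other 6 genes (red) and in cells with none of the other 6 (blue), which lie apart for every gene.

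Cells next to the limits were mixed. The 16 cells with exactly 4 marker UMIs had 69.9 CPM of Lama1, 133 CPM of Col4a1 and 25.4 CPM of Nanog. The 21 cells with 3 UMIs of at least 2 genes, just outside, had 34.1, 53.9 and 56.8 CPM of the same genes. Feeder markers summed to 121 CPM, from 19 UMIs, in the former and 76.6 CPM, from 27 UMIs, in the latter, against 50.5 CPM in marker-free cells. In the 28 cells with at least 4 UMIs of a single marker, Lama1 was at 17.5 CPM and Nanog at 47.6 CPM, nearer to the marker-free cells. A further 8 cells met the marker limit but exceeded the collagen limit, with a median of 26987 UMIs per cell and 3106 CPM summed over 14 feeder markers.

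After the 9 selection genes were left out, 9356 genes with a mean of at least 5 CPM over both classes were compared by the log2 ratio of CPM + 1, and a gene was called higher or lower past a 2-fold difference. By this limit 324 genes were higher in the primitive endoderm-like cells, 3.46% of those compared, and 166 were lower, 1.77%. The counts depended on the settings. Higher genes numbered 214 with a pseudocount of 5 CPM and 563 with no filter on low values. Lower genes numbered 63 and 402 under the same settings, 109 with a limit of 3 marker UMIs, 258 without the cells of highest doublet score and 288 when cells were thinned to 5000 UMIs. The counting interval of the ratio lay wholly past 2-fold for 221 of the higher and 39 of the lower genes. The median log2 ratio of all genes compared was 0.05. Of the 324 and 166 genes, 292 and 140 kept their call both after thinning and against marker-free cells weighted to the same depth distribution.

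**Figure D2:**
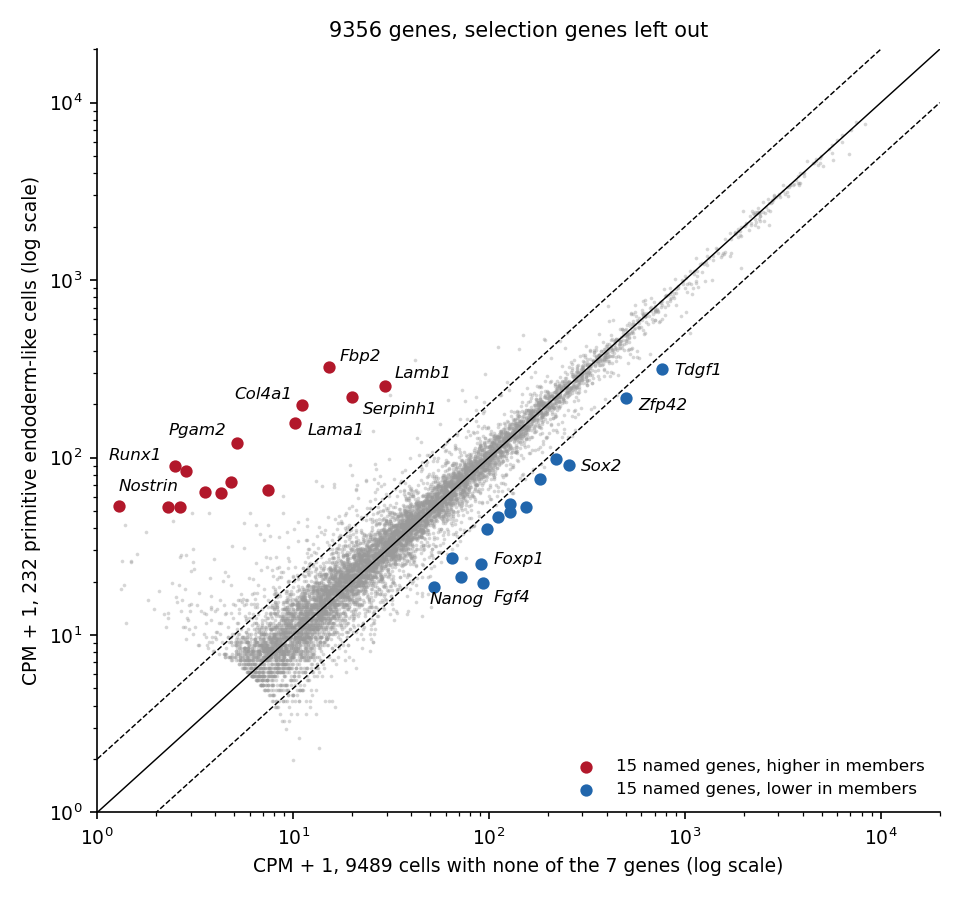
Each point is 1 of 9356 genes, plotted by its CPM + 1 in the 9489 marker-free cells (horizontal, log scale) and in the 232 primitive endoderm-like cells (vertical, log scale), with dashed lines at a 2-fold difference. The 15 genes named as highest (red), from Nostrin to Lamb1, lie above the upper line, and the 15 named as lowest (blue), from Fgf4 to Phc1, below the lower one.

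Of the 15 genes with the largest log2 ratios among those with at least 50 CPM and 30 UMIs in the class where they were higher, 5 belong to the basement membrane, the extracellular sheet on which endoderm rests, or to its assembly. Lama1, the laminin alpha chain of the earliest embryonic basement membrane (chr17:67697259-67822647, plus strand, mm10), was at 156 CPM (143 to 171) in the primitive endoderm-like cells and 9.21 CPM (8.67 to 9.78) in marker-free cells, a ratio of 17.0 (15.2 to 18.9). Lamb1, the beta chain that pairs with it, was at 252 and 28.3 CPM, a ratio of 8.90 (8.22 to 9.62). Col4a1 and Col4a2, the chains of the main type IV collagen trimer, were at 197 and 10.1 CPM (ratio 19.4, 17.6 to 21.4) and at 71.7 and 3.81 CPM (ratio 18.8, 15.9 to 22.1). These neighbouring genes on chromosome 8 (chr8:11198423-11312826, minus strand, and chr8:11312805-11449287, plus strand) overlap at their first exons, and whether counting used strand was not stated. Serpinh1, the collagen chaperone of the endoplasmic reticulum, was at 217 CPM in the primitive endoderm-like cells, a ratio of 11.4 (10.5 to 12.5).

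The difference was also seen cell by cell. At least 1 UMI of Lama1 was present in 158 of the 232 cells (68.1%) and in 10.2% of marker-free cells, and Col4a1 in 173 (74.6%) and 10.9%, at nearly equal median depth. After each cell was thinned to 5000 UMIs, Lama1 was detected in 48.9% and 4.37% and Col4a1 in 52.9% and 4.67%. At least 1 of Lama1, Col4a1 and Lamb1 was found in 218 primitive endoderm-like cells (94.0%) and in 40.9% of marker-free cells.

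Of a list of 15 basement membrane genes, 14 had enough counts to compare, 7 were higher and 0 lower, beside 3.46% and 1.77% of all genes, with a median log2 ratio of 1.06. Besides the laminin and collagen chains above, the higher members were Lamc1, the laminin gamma chain (153 and 55.3 CPM), Hspg2, which encodes perlecan (68.1 and 27.1 CPM), and Sparc, a collagen-binding glycoprotein (460 and 192 CPM). The list did not move as a whole. The log2 ratio was 0.04 for Lama5, a later laminin alpha chain, -0.15 for Nid2 and -0.79 for Fn1, fibronectin (55.4 and 96.3 CPM), and Col4a5 had 0 UMIs. Among 9 genes that modify or fold collagen, all of them compared, 4 were higher and 0 lower, with a median of 0.88. These were Serpinh1, the prolyl hydroxylase subunits P4ha1 (90.0 and 18.6 CPM) and P4ha2 (18.3 and 5.61 CPM), and the lysyl hydroxylase Plod2 (97.1 and 29.9 CPM), and the lowest log2 ratio of the 9 was 0.38.

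Other genes known from the primitive endoderm, none of them used in the selection, were the group with the highest median over the genes compared. Of 15 listed, 11 could be compared, all 11 were higher, beside 3.46% of all genes, and their median log2 ratio was 4.01. A gene under 5 CPM in marker-free cells, as most of the 11 were, could enter the comparison only by a higher level in the primitive endoderm-like cells. The count of higher genes was thus partly set by this filter, also in the other lists. With no filter on low values the median of the primitive endoderm list was 2.69. Lama1, described above, and Fgfr2, an FGF receptor described with its pathway, are both on this list. Foxa2, an endoderm transcription factor, was at 24.8 and 0.489 CPM (ratio 50.6, 35.5 to 72.5). It was detected in 58 cells (25.0%) against 0.569% of marker-free cells. Nostrin, a regulator of membrane traffic and nitric oxide synthase, had the largest log2 ratio of the named genes, 5.38, with 52.5 and 0.287 CPM (ratio 183, 126 to 273). Srgn, the core protein of the proteoglycan serglycin, was at 51.8 and 1.31 CPM, a ratio of 39.6 (31.6 to 49.8).

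The smaller ratios of the list were those of Cited1, a transcriptional co-regulator (7.17 and 2.90 CPM), Lrp2, the endocytic receptor megalin (33.2 and 14.7 CPM), and Pth1r, the receptor for parathyroid hormone-related protein (12.7 and 2.40 CPM). Aqp8, an aquaporin, had too low a mean to be compared, with 16 UMIs or 5.22 CPM. Hnf4a and Rspo3 had 2 UMIs each and Bmp2 had 10 UMIs. Together these 4 genes held few of the UMIs of the list.

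Markers of the layers that follow were only partly present. Of 16 visceral endoderm genes, 7 could be compared and 2 were higher, with a median of 0.65, and both of these, Amn and Cubn, are also on the preceding list. For this and the lists that follow, the same background of 3.46% higher and 1.77% lower genes applies. Afp, alpha-fetoprotein, and the apolipoprotein genes Apoa4 and Apob had 0 UMIs, and Ttr, transthyretin, and Cer1, a secreted Nodal antagonist, had 1 UMI each. Apoe was at 886 and 785 CPM and Hhex, a homeobox factor of the anterior visceral endoderm, at 10.4 and 5.59 CPM, both inside the 2-fold limit. Of 9 parietal endoderm genes, 6 could be compared, 5 were higher and 0 lower, with a median of 1.58. The higher ones were Sparc, Lamb1, Pth1r, Snai1, a factor that lowers E-cadherin (13.0 and 3.09 CPM), and Fst, the activin-binding protein follistatin (21.5 and 7.66 CPM). Fst was not particular to the selected cells. It was at 32.5 CPM in unselected cells with 2 to 3 marker UMIs and at 5.67 CPM, from 5 UMIs, in selected cells with 4 to 7. Vim, vimentin, was at 411 and 244 CPM, and Stra6 and Thbd had 0 and 2 UMIs.

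Genes for uptake and lysosomal digestion, a main activity of extraembryonic endoderm, were higher in part. Of 14, 13 could be compared, 7 were higher and 0 lower, with a median of 1.02 and a lowest log2 ratio of 0.14. Cubn, the receptor cubilin, was at 42.7 and 1.44 CPM (ratio 29.6, 23.4 to 37.4), and its partner Amn, amnionless, at 47.9 and 2.03 CPM (ratio 23.6, 19.1 to 29.1). Lrpap1, the chaperone of the megalin family, was at 420 and 111 CPM, and the protease Ctsl, cathepsin L, at 492 and 148 CPM. Lrp2, Ctsz and Lgmn, the last 2 also lysosomal proteases, exceeded the limit by less. The lysosomal membrane genes Lamp1 and Lamp2 had log2 ratios of 0.37 and 0.14.

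**Figure D3:**
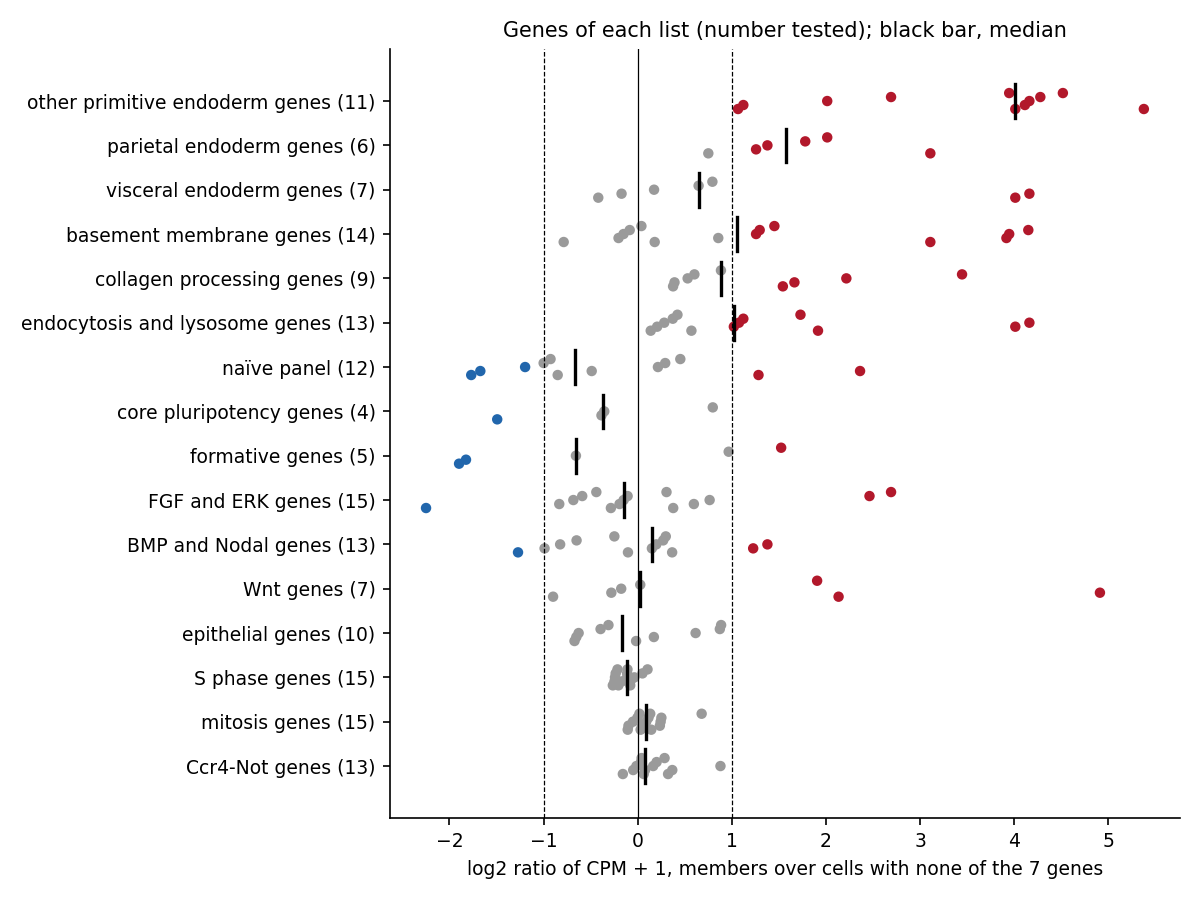
Each point is the log2 ratio of CPM + 1 of 1 gene, primitive endoderm-like over marker-free cells, by gene list, with the number of genes compared in brackets, a black bar at the list's median and dashed lines at 2-fold (red, higher; blue, lower). The median is 4.01 for other primitive endoderm genes and between -0.15 and 0.15 for the FGF, BMP and Nodal, Wnt, S phase, mitosis and Ccr4-Not lists.

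The other genes named as higher belonged to several functions. Runx1, a factor best known from blood formation, was at 88.7 and 1.48 CPM (ratio 59.7, 49.2 to 72.6) and was detected in 123 cells (53.0%) against 1.65% of marker-free cells. Amot, angiomotin, which ties Hippo signalling to cell polarity, was at 83.1 and 1.85 CPM (ratio 45.0, 37.4 to 54.1). Fbp2, a gluconeogenic fructose bisphosphatase, was at 322 and 14.2 CPM (ratio 22.6, 20.9 to 24.5). It was also widespread, being detected in 70.7% of thinned primitive endoderm-like cells and 6.43% of thinned marker-free cells. Pgam2, a phosphoglycerate mutase of glycolysis, had a ratio of 29.0 (25.2 to 33.2). Nrg2, a ligand of ERBB receptors, was at 51.8 and 1.64 CPM, and Flrt3, an adhesion protein that modulates FGF receptors, at 62.6 and 2.54 CPM. Cpn1, a carboxypeptidase subunit, was at 62.3 and 3.27 CPM, and Bend5, a BEN-domain protein, at 64.9 and 6.44 CPM (ratio 10.1, 8.57 to 11.8).

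These 15 genes held their direction in each subset examined, but the subsets are part of the cells that ranked them and give no independent support. Without the cells over the doublet threshold, all 15 were past 2-fold with log2 ratios of 3.25 to 5.61. Among cells with at least 2 UMIs of Y-linked genes and no tdTomato (88 primitive endoderm-like, 2422 marker-free), all 15 were past 2-fold with ratios of 3.17 to 5.13, and among cells with no Y-linked UMI (93 and 5106) with ratios of 2.82 to 5.47.

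Because GATA factors bind short GATA words, the 250 bases upstream of the start site were searched on both strands for AGATAA, for the variant of this word that ends in G (AGATAG), and for the forms with T in place of the first base, TGATAA with the same ending as the first word and TGATAG with that of the second. The upstream sequences were RefSeq's on GRCm38.p6. A word was present for 3 of the 13 genes named as higher that had an entry (23.1%), Fbp2, Flrt3 and Bend5, for 3 of 14 named as lower (21.4%), and for 29.7% of all 27025 genes in the table. The sequences are shown for the 3 higher genes with a word, for Nostrin, the named gene with the largest ratio, and for Tdgf1, a lower gene with a word. Capitals mark the word as it reads on the gene's strand, which is its reverse complement in Fbp2, Flrt3 and Bend5. The regions are chr13:62858423-62858650 (minus strand, bases in annotated exons left off) for Fbp2, chr2:140671477-140671726 (minus) for Flrt3, chr4:111414756-111415005 (plus) for Bend5, chr2:69135550-69135799 (plus) for Nostrin and chr9:110946159-110946408 (minus) for Tdgf1.
Fbp2: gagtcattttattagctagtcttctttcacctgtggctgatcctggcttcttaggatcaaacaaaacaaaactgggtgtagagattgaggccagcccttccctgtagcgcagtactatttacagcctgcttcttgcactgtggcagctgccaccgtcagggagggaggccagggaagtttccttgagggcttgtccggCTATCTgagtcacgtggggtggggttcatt
Flrt3: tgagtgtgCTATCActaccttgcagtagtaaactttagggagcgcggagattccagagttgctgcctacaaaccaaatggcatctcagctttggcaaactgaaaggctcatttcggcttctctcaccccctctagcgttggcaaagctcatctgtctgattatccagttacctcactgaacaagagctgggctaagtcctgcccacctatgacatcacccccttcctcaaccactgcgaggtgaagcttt
Bend5: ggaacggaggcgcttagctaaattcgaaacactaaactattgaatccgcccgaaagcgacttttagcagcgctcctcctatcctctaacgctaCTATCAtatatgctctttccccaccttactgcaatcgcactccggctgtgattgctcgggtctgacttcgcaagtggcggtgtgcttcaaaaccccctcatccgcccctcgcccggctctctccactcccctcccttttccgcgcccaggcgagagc
Nostrin: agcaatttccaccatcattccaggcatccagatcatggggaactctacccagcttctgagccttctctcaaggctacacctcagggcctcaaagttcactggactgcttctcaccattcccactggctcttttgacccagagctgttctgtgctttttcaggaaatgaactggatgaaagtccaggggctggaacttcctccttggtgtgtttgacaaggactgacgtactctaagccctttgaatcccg
Tdgf1: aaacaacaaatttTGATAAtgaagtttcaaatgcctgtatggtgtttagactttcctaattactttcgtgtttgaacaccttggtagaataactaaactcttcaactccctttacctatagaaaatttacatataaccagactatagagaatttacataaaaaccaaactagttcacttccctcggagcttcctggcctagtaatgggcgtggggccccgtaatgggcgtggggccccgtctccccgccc

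Genes of the epiblast were among the 15 with the lowest log2 ratios under the same minimum of 50 CPM and 30 UMIs. Fgf4, the ligand by which epiblast cells signal to primitive endoderm, was at 18.6 CPM (14.1 to 24.1) in the primitive endoderm-like cells and 92.0 CPM (90.3 to 93.7) in marker-free cells, a ratio of 0.202 (0.153 to 0.262). Nanog, the naïve homeobox factor, was at 20.2 and 71.2 CPM (ratio 0.284, 0.217 to 0.364), and Sox2, the partner of OCT4, at 89.6 and 254 CPM (ratio 0.353, 0.312 to 0.398). Tdgf1, the Nodal co-receptor Cripto, was at 316 and 764 CPM (ratio 0.414, 0.388 to 0.441), and Zfp42, also called Rex1, at 217 and 498 CPM (ratio 0.436, 0.403 to 0.470). Without the cells over the doublet threshold, Fgf4 was at 13.3 and 91.8 CPM and Nanog at 19.2 and 72.4 CPM. Sox2 was then at 60.0 and 255 CPM, Tdgf1 at 241 and 766 CPM and Zfp42 at 196 and 499 CPM.

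Detection gave the same order of the classes for these genes. Fgf4 was found in 39 primitive endoderm-like cells (16.8%) and in 57.8% of marker-free cells, Nanog in 51 (22.0%) and 46.0%, and Sox2 in 104 (44.8%) and 86.0%. After thinning, the shares were 7.11% and 34.1% for Fgf4, 7.11% and 26.9% for Nanog and 24.9% and 67.0% for Sox2. Gata6 and Nanog UMIs were found together in 50 of the 232 cells. Because Gata6 was detected in 97.4% of the selected cells, this count nearly restates that of Nanog. Whether free RNA or doublets gave these Nanog UMIs was not tested.

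The remaining named genes of this direction were Foxp1, a forkhead factor (24.1 and 89.6 CPM), Morc1, a repressor of transposons (51.5 and 153 CPM), Cobl, an actin nucleator (17.6 and 51.7 CPM), and Ifitm1, an interferon-induced membrane protein (48.2 and 127 CPM). Foxp1 shares exon sequence on its own strand with another annotated gene, so its counts are uncertain. Cdca7, Hmces, Tcea3, Fblim1, Pim1 and Phc1, a Polycomb subunit, had log2 ratios between -1.29 and -1.17. The interval of the ratio was wholly past 2-fold for 14 of the 15 genes and reached 0.508 for Fblim1. Without the cells over the doublet threshold all 15 stayed past 2-fold, again in a part of the cells that had ranked them. Among cells with Y-linked UMIs 13 did, the exceptions being Morc1 and Ifitm1, and among cells with no Y-linked UMI all 15 did.

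The naïve panel was split. Of 13 genes, 12 could be compared, 3 were lower, 2 were higher, and the median log2 ratio was -0.67. Nanog, Zfp42 and Nr5a2, an orphan nuclear receptor (5.54 and 19.8 CPM), were lower. Tbx3, a T-box factor, was higher at 195 and 37.1 CPM (ratio 5.25, 4.82 to 5.72), as was Klf5, a Krüppel-like factor, at 464 and 190 CPM (ratio 2.44, 2.31 to 2.58). Esrrb, Klf4 and Tfcp2l1 had log2 ratios of -0.49, 0.29 and 0.45. Klf2 was just inside the limit at 225 and 451 CPM.

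Core pluripotency genes were mostly inside the limit. Of 4 genes, Sox2 was lower, while Pou5f1, which encodes OCT4, was at 63.6 and 83.3 CPM (ratio 0.763, 0.659 to 0.880), Utf1 at 577 and 739 CPM and Sall4 at 283 and 162 CPM, and the median log2 ratio was -0.37. Of 6 formative genes, 5 could be compared, 1 was higher and 2 lower, with a median of -0.66. Otx2, a homeobox factor of the formative epiblast, was at 3.26 and 14.9 CPM and Lef1, a Wnt effector, at 13.4 and 49.8 CPM. The de novo DNA methyltransferase genes went the other way, with Dnmt3a at 410 and 142 CPM (ratio 2.89, 2.73 to 3.06) and Dnmt3b at 452 and 231 CPM, just inside the limit.

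The signalling lists held genes past the limit on both sides, to be read beside the 3.46% and 1.77% of all genes. Of 19 FGF and ERK genes, 15 could be compared, 2 were higher and 1 lower, with a median of -0.15. The lower gene was the ligand Fgf4, and the higher ones were Fgfr2, an FGF receptor (30.6 and 3.90 CPM, ratio 7.86, 6.23 to 9.83), and Dusp4, a phosphatase that switches off ERK (140 and 24.7 CPM, ratio 5.70, 5.14 to 6.30). Fgfr1, the receptor that both lineages use, had a log2 ratio of -0.11. The ERK targets Spry2, Etv4, Etv5 and Dusp6 had log2 ratios of 0.76, -0.83, -0.59 and -0.44.

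Pdgfa, the ligand of the selection gene Pdgfra, was at 127 and 119 CPM (ratio 1.08, 0.970 to 1.19), and of the 2 PDGF genes that could be compared only Pdgfc (5.22 and 17.6 CPM) was lower. Of 15 BMP and Nodal genes, 13 could be compared, 2 were higher and 1 lower, with a median of 0.15. Lefty2, a Nodal inhibitor (102 and 42.9 CPM), and Fst, whose uneven levels are given above, were higher and Tdgf1 was lower. Nodal was at 36.2 and 72.8 CPM, just inside the limit. Of 11 Wnt genes, 7 could be compared and 3 were higher, with a median of 0.03. They were the secreted inhibitor Dkk1 (40.7 and 0.388 CPM, ratio 105, 74.3 to 151), the feedback gene Axin2 (69.8 and 15.1 CPM, ratio 4.61, 3.99 to 5.32) and the ligand Wnt6 (26.4 and 6.31 CPM, ratio 4.18, 3.28 to 5.27). Dkk1 was detected in 76 of the 232 cells (32.8%). Of 9 retinoid genes, 3 could be compared and 1, the binding protein Crabp2, was lower with a log2 ratio of -1.10.

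The genes compared on the epithelial, proliferation and deadenylation lists were all inside the limit. None of 10 epithelial genes compared was past 2-fold, with Cdh1, E-cadherin, at -0.39, Epcam at -0.31, Tjp1, a tight junction scaffold, at 0.87 and Cdh2, N-cadherin, at 0.89 on the log2 scale. Of 15 S phase and 15 mitosis genes 0 were past 2-fold, with medians of -0.11 and 0.09. Of 13 Ccr4-Not genes 0 were past 2-fold and the median was 0.08. Cnot8, the gene disrupted in the KO line, was at 61.9 and 60.4 CPM, and Tob1, an adaptor that recruits the complex, had the largest log2 ratio of the list, 0.88.

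The levels also differed among the primitive endoderm-like cells themselves. They were grouped by marker UMIs into 70 cells with 4 to 7, 86 cells with 8 to 14 and 76 cells with at least 15, with median depths of 10575.5, 10859 and 13509 UMIs. Lama1 was at 70.3, 137 and 244 CPM in these classes, and Lamb1 at 129, 229 and 372 CPM. Foxa2 was at 7.94, 27.8 and 35.3 CPM, Cubn at 13.6, 24.1 and 84.1 CPM, and Amn at 11.3, 40.7 and 84.1 CPM. The values of all 5 genes were thus higher in each class with more marker UMIs, though not all steps exceeded counting error. The intervals overlapped for Foxa2 between the middle and highest classes (18.7 to 39.6 and 25.1 to 48.2 CPM). They also overlapped for Cubn between the lowest and middle classes (7.03 to 23.8 and 15.7 to 35.3 CPM).

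Sox2 and Tdgf1 ran in the opposite order. Sox2 was at 128, 99.0 and 49.7 CPM and Tdgf1 at 441, 355 and 178 CPM across the same classes, while Nanog was at 22.7 CPM (13.9 to 35.0) in the lowest class and 18.1 CPM (11.0 to 27.9) in the highest, values whose intervals overlap. Pou5f1, at 65.8, 71.3 and 54.3 CPM, and Esrrb, at 35.2, 40.7 and 38.9 CPM, did not follow this order. Tbx3, at 154, 182 and 240 CPM, and Klf5, at 341, 465 and 561 CPM, followed the endoderm genes. Likely doublets made up 25.7%, 15.1% and 5.26% of the cells in the classes, so the share of such cells ran with Sox2 and Tdgf1. Their part in these orders was not tested.

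Cells outside the selection with 1 marker UMI were near the marker-free cells for some genes and apart from them for others. The 987 cells with 1 UMI had 8.72 CPM of Lama1, 68.6 CPM of Nanog and 251 CPM of Sox2, near the 9.21, 71.2 and 254 CPM of marker-free cells. Their Fbp2 was at 21.7 CPM (19.4 to 24.3) against 14.2 CPM (13.5 to 14.9) in marker-free cells. Fgf4 was at 80.7 CPM (76.2 to 85.5) against 92.0 CPM (90.3 to 93.7). The 161 cells with 2 to 3 UMIs had 13.7 CPM of Lama1, 47.5 CPM of Serpinh1 and 215 CPM of Sox2, between the marker-free cells and the lowest selected class. This intermediate class also had 75.8 CPM of Krt18, an epithelial keratin, against 21.1 CPM in marker-free cells and 32.9, 18.5 and 13.6 CPM in the selected classes. Its partner Krt8 was at 47.5 CPM there and at 47.6 CPM in the lowest selected class, against 17.3 CPM in marker-free cells.

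**Figure D4:**
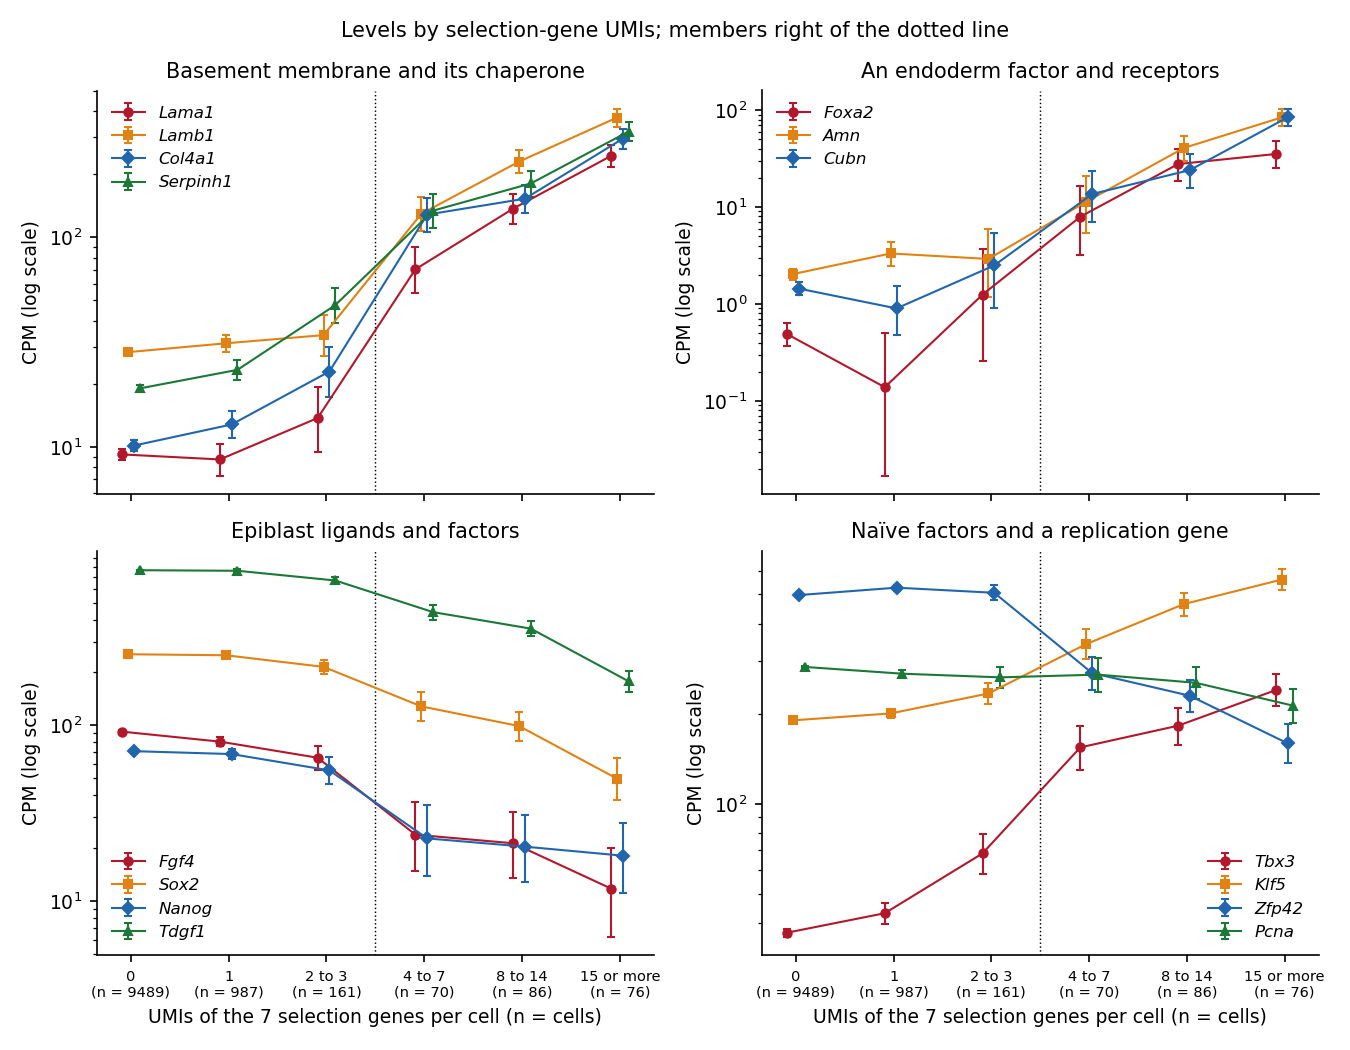
Levels in CPM (log scale, exact 95% Poisson intervals) of 15 genes in cells grouped by UMIs of the 7 selection genes (horizontal, with the number of cells), the selected cells being right of the dotted line. Lama1 goes from 9.21 CPM at 0 UMIs to 244 CPM at 15 or more and Sox2 from 254 to 49.7 CPM, while the replication gene Pcna stays between 213 and 286 CPM.

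Markers of other cell types that such a culture could hold were also summed. Feeder and 2-cell-like sums were not above those of marker-free cells. Mesendoderm and trophoblast sums were above them, with intervals that did not overlap. The 14 feeder fibroblast markers summed to 48.6 CPM (41.1 to 57.0) in the primitive endoderm-like cells and 50.5 CPM in marker-free cells, and Lum had 0 UMIs. The 8 markers of 2-cell-like cells summed to 3.26 and 5.12 CPM, with 4 genes at 0, though these genes have near-identical copies and their counts are uncertain. The 8 mesendoderm markers summed to 13.4 CPM (9.59 to 18.1) and 6.86 CPM. Mixl1, Fgf8 and Cxcr4 had 0 UMIs and T, Brachyury, had 1, whereas Lhx1, a homeobox factor of mesendoderm and visceral endoderm, had 17 UMIs, at 5.54 CPM against 0.0506 CPM. The 10 trophoblast markers summed to 73.0 CPM (63.8 to 83.2) and 53.0 CPM. Of the 3 that could be compared, Plet1 was higher (34.6 and 16.2 CPM) and Tfap2c lower (5.87 and 13.2 CPM). Ascl2 was just inside the limit, with a log2 ratio of 0.98. The defining factors Cdx2 and Elf5 had 1 and 0 UMIs. The part of these markers in the differences above was not tested.

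Few of the cells could be assigned to a line by its marks. Of the 232 cells, 8 had a tdTomato UMI (3.45%), 9 UMIs in all, against 4.94% of marker-free cells, and the part of free RNA in these UMIs was not tested. A tdTomato UMI was present in only 514 of the cells that met the collagen limit, so a cell without one cannot be assigned to a line. Transcripts of 4 Y-linked genes (Ddx3y, Eif2s3y, Kdm5d and Uty) were at 79.1 CPM in marker-free cells without tdTomato and 16.7 CPM in those with it. Primitive endoderm-like cells were 8 of the 514 cells with tdTomato (1.56%, 0.674 to 3.04%) and 88 of the 2926 cells with at least 2 Y-linked UMIs and no tdTomato (3.01%, 2.42 to 3.69%), and these intervals overlap. The share was 1.64% (1.31 to 2.02%) in the 5248 cells with neither mark, an interval wholly below that of the cells with at least 2 Y-linked UMIs.

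Depth enters these shares, since a deeper cell is more likely to show both a mark and the markers. With every cell thinned to 5000 UMIs before the rule and the marks were applied, 1 of 214 cells with tdTomato (0.467%, 0.0118 to 2.58%) and 20 of 881 cells with Y-linked UMIs (2.27%, 1.39 to 3.48%) qualified. With the marks thinned and the rule kept on all UMIs, the shares were 4 of 214 (1.87%) and 33 of 881 (3.75%). Y-linked transcripts were at 109 CPM (97.8 to 122) in primitive endoderm-like cells and 75.4 CPM in marker-free cells, and after thinning at least 1 was found in 38.7% and 28.1%. A difference between the lines cannot be told apart from the sampling of 1 mixture.

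**Figure D5:**
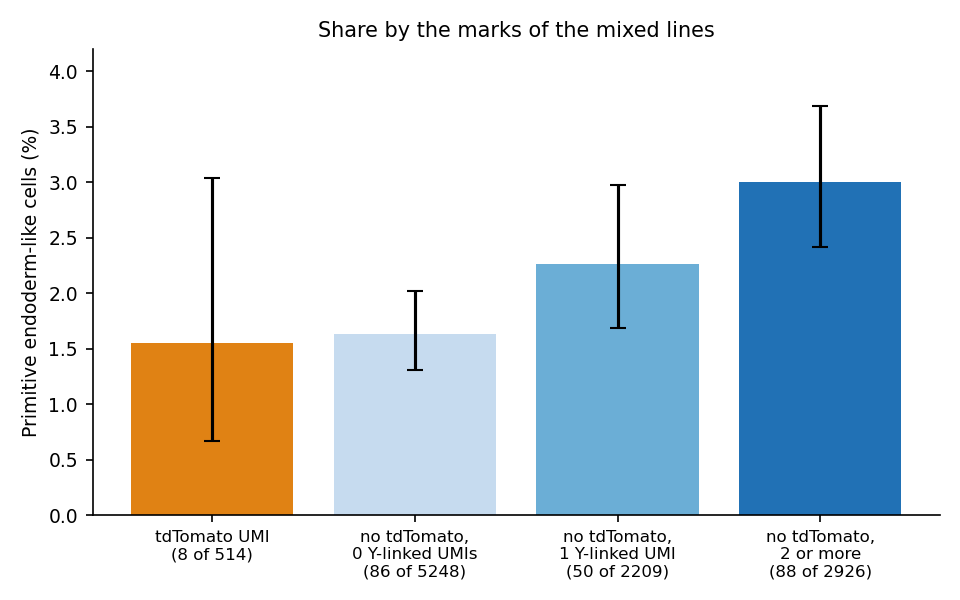
Bars give the share of primitive endoderm-like cells (percent, with exact 95% binomial intervals) among ESC library cells grouped by tdTomato and by UMIs of 4 Y-linked genes, with the numbers of cells below. The share is 1.56% with tdTomato and goes from 1.64% to 3.01% with more Y-linked UMIs, and the tdTomato interval overlaps the others. The intervals at 0 and at 2 or more Y-linked UMIs, 1.31 to 2.02% and 2.42 to 3.69%, do not overlap. The groups are not matched for depth.

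The same rule found almost no such cells after differentiation. In the 48h-EpiLC library 4 of 9400 kept cells met it (0.0426%, 0.0116 to 0.109%), although the cells of that library were deeper, with a median of 13333 UMIs per barcode against 10965.5. All 4 were deep cells, of 22122 to 34322 UMIs, with 0 UMIs of Gata4, Sox17 and Sox7. One of them had 6 UMIs of Gata6 and 15 of Foxq1, and the other 3 had exactly 4 marker UMIs each. Over all kept cells, Gata6 was at 12.4 CPM in the ESC library and 0.496 CPM in the 48h-EpiLC library. Stage and library cannot be told apart here, and the culture of the 48h-EpiLCs also lacked feeder cells, serum and LIF.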

How the data were processed

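Single-cell RNA sequencing gave 1 library of ESCs and 1 of 48h-EpiLCs, each a mixture of the WT and Cnot8 KO lines. The deposited values were raw counts of UMIs by gene and barcode, obtained by the authors from Cell Ranger 3.0.2 at default settings on mm10 with the tdTomato coding sequence added. Seurat 4 was named for the authors' later steps, whose cell clusters were not used here. Whether counting used strand was not given in the sources used here.

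Barcodes with fewer than 1000 genes or over 10% mitochondrial UMIs were discarded. UMIs were summed per class and divided by the class total to give CPM, with exact Poisson intervals for levels, exact binomial (Clopper-Pearson) intervals for shares and conditional binomial intervals for ratios, all at 95%. Genes with a mean of at least 5 CPM over both classes were compared by the log2 ratio of CPM + 1, with a limit of 2-fold, while printed ratios are of CPM with no pseudocount. With 1 library per stage no test between groups was possible, and cells are not replicates. Free RNA in the droplets adds UMIs to all cells, and the intervals cover counting error only. Depth per sample is given with the results. Doublets were scored with Scrublet in scanpy 1.11.5 (expected rate 0.1, automatic threshold 0.334, which marked 899 ESC library cells, 8.13%) and were not removed in the main comparison. Thinning drew 5000 UMIs per cell, which left out 7 primitive endoderm-like and 451 marker-free cells.

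The 15 named genes on each side had the largest ratios among those with at least 50 CPM and 30 UMIs in the class where they were higher and past 2-fold also after thinning and depth weighting. Mitochondrial genes and genes without a symbol of their own were not named. The cells, markers and gene lists were chosen with earlier results of these data known. The computation was tested on simulated data with known ratios. Gene positions were from GENCODE M21 on GRCm38, which held 32158 of 32286 features. Python 3.11.15, numpy 2.4.6, scipy 1.17.1, pandas 2.3.3 and matplotlib 3.10.9 were used. The 16 alternatives tried concerned the cell filters, the marker and collagen limits, doublets, depth, the comparison class, normalization, the pseudocount and the filter on low values.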

Additional observations from a re-analysis of the deposited data

How the results depend on the processing

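Medians of the other primitive endoderm, basement membrane, naïve and core pluripotency genes kept their sign under all alternatives run. They moved by less than their intervals over genes, but these intervals are wide. They were 1.12 to 4.52, -0.15 to 3.92, -1.20 to 0.45 and -1.49 to 0.80 in the same order, and all but the first include 0. The ratio of median depths, 1.01 (0.954 to 1.07), also moved by less than its interval. The median of the other primitive endoderm genes, 4.01, ranged from 2.49 to 4.49. The share of primitive endoderm-like cells, 2.10%, was 1.64% with at least 6 UMIs of 3 markers and 1.39% after thinning to 5000 UMIs. Thinning also gave 0.467% in place of 1.56% among cells with tdTomato and 2.27% in place of 3.01% among cells with Y-linked UMIs. The 324 higher genes became 214 with a pseudocount of 5 CPM and 563 with no filter on low values. The 166 lower genes became 63 with that pseudocount, 402 with no filter, 109 with a limit of 3 marker UMIs, 258 without the 10% of cells with the highest doublet scores and 288 after thinning. Other settings kept both counts within 1.5 times, and TMM normalization shifted log2 ratios by -0.09. The cause of these moves was not tested, apart from the filter, which by construction changes the genes compared. No paired analysis was possible because each stage was a single library. Depth limits genes of a few UMIs in the 232 cells most.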

Other observations

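The genes in this section were chosen after their values were seen. Xist, the RNA that coats the inactive X chromosome, was at 44.3 CPM (37.2 to 52.4) in the primitive endoderm-like cells and 10.8 CPM in marker-free cells, and Tsix, its antisense partner, at 34.6 and 51.3 CPM. The Xist value did not rest on cells without Y-linked transcripts. In the 88 primitive endoderm-like cells with at least 2 Y-linked UMIs Xist was at 54.1 CPM (42.2 to 68.2, from 71 UMIs), and in the 93 with no Y-linked UMI at 52.2 CPM (39.4 to 67.7, from 56 UMIs). Both values are above that of the whole class, so Xist was lower in cells with 1 Y-linked UMI, which are in neither subset. Detection of Xist was 22.0% in the primitive endoderm-like cells and 9.58% in marker-free cells. Xist and Tsix overlap on opposite strands and the strand setting of the counting was not stated. H19, an imprinted noncoding RNA abundant in extraembryonic tissue, was at 354 and 40.7 CPM, and it differed between the same subsets, at 282 CPM (254 to 312) in cells with Y-linked UMIs and 515 CPM (473 to 560) in cells without.

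Further ligands and enzymes were far apart between the classes. Fgf3 was at 29.7 and 2.10 CPM, Fgf10 at 16.6 and 1.07 CPM and Bmp6 at 27.7 and 0.599 CPM, whereas Fgf17 was at 2.93 and 15.4 CPM. The FGF ligands thus differed among themselves in direction. Fbp1, the liver form of the enzyme encoded by Fbp2, was at 18.3 and 1.61 CPM, while Pgam1, the widely expressed relative of Pgam2, was at 706 and 791 CPM. Zfpm1, which encodes the GATA cofactor FOG1, was at 47.6 and 5.04 CPM, and Lmo2, a bridging protein of GATA complexes in blood, at 14.3 and 1.57 CPM.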
